A study of Mus musculus with 4 samples.

Results

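The livers of PPARα-null mice killed after 24 hours without food were compared with the livers of fed PPARα-null mice, 1 pooled array a side. Of the 22626 probe sets on the array that are not controls, 5805 read 64 units or more on the brighter of these 2 arrays, which is the rule that chose them. They make up 25.7% of the array, and 5243 of them name a single gene. With 1 probe set chosen per gene, 3671 of the 12393 genes named on the array were measured in null liver. The null mice were males of the substrain 129S4/SvJae, 12 to 20 weeks old, and lack functional PPARα in every cell, so no response can be assigned to hepatocytes. Wild-type males of the substrain 129S1/SvImJ and the same age went through the same regimen and their values are given for comparison. The series' design lists 5 mice per group, with liver RNA pooled within each group, and the number in a given pool may be lower. Food was taken away when the lights came on for the fasted group, and the fed group was sampled as its dark period ended, which puts both pools near the same hour of the day. Substrain and genotype cannot be told apart. With 1 array per group there is no spread between replicates, no test could be run and no p-value is given.

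During a fast, glucagon, glucocorticoids and falling insulin turn the liver from storing glucose to releasing it, and fatty acids from adipose tissue become its main fuel. PPARα is the nuclear receptor that fatty acids bind in hepatocytes, and it induces the genes of mitochondrial, peroxisomal and microsomal fatty acid oxidation and of ketone body synthesis. Mice without it develop fatty liver and low blood glucose when fasted. The comparison asks which parts of the fasting response occur in a liver that has no PPARα.

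Values are GCRMA intensities on a linear scale, which are relative brightness and not molecule counts, so only 1 gene's values on different arrays are compared. The summed levels of cell type markers are the exception. Values under 16 units were set to that floor before a fold was taken. Where the dimmer array lay at the floor, the fold is written as at least. The words rose and fell are used only for a difference of 1.5-fold or more between the fed and the fasted array, and a gene was counted as measured at 64 units or more on the brighter of them. Of the 4 pairs compared, the 2 fed arrays were the most alike (r = 0.995 over the log2 values of all probe sets), and the fed and fasted null arrays the least alike (r = 0.970). The ratio of 3′ to 5′ probe sets, which grows when RNA is degraded, was 2.22 and 2.45 for Actb and 1.04 and 1.06 for Gapdh in fed and fasted null liver. The bacterial spike-in bioB read 167 and 289 units on these arrays against 159.5 and 204 units in fed and fasted wild-type liver. A probe set in the middle of 18S ribosomal RNA read 1677 and 827 units in fed and fasted null liver, against 2340.4 and 2513 units in wild-type liver, so the fasted null array was the lowest. A probe set at its 3′ end read 3556 and 3325 units against 4497 and 4828 units. The part of these values in any result was not tested.

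The targeted gene was examined first. Ppara read 104 to 16.3 units in null liver from the fed to the fasted state, and 583 to 755 units in wild-type liver. Both null arrays lay below both wild-type arrays, as the labels have it, and the fasted null value was almost at the floor. The position of this probe set relative to the disruption is unknown, so its 6.38-fold fall in the null pool is no measure of receptor messenger.

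More probe sets passed 1.5-fold between the fed and fasted arrays of null liver than between those of wild-type liver. With 1 array per group, a larger response to fasting cannot be told apart from a trait of a single array. In null liver 1022 of 5805 probe sets (17.6%) rose and 1369 (23.6%) fell, together 41.2%. Of the 5661 probe sets measured in wild-type liver, 744 rose and 678 fell, together 25.1%. At 4-fold or more the counts were 156 higher and 227 lower in null against 72 and 82 in wild-type liver. The excess of falls in null liver depends on the scaling. Falls made up 57.3% of the probe sets past 1.5-fold as deposited, and 46.8% when each array was centred on its median over bright probe sets. Centring took a shift of -0.13 on the log2 scale out of the null difference. At the edge of the rule, Cxcl14 (43.9 and 63.95 units) and Dicer1 (29.1 and 63.98 units) lay just outside 64 units. A probe set without a gene name (64.006 and 56.8 units) and Cuta (64.008 and 33.2 units) lay just inside.

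Of 3671 genes measured in null liver, 632 (17.2%) rose and 921 (25.1%) fell, with a median log2 difference of -0.06. These shares are the background for every gene list that follows. A gene that reached 64 units through 1 array alone had to differ, and this was so for 191 of the rises, dim when fed, and 312 of the falls, dim when fasted. List counts and medians over measured genes therefore describe those genes and not all members of a list. In wild-type liver 457 (12.8%) of 3571 genes rose and 450 (12.6%) fell, with a median of 0.01. The 2 comparisons share no array. Over the 3434 genes measured in both, the responses had a Pearson correlation of 0.65 across genes, which are not independent replicates. Of the genes that fell in wild-type liver 76.2% also fell in null liver, and of those that fell in null liver 38.1% fell in wild-type liver. For rises the shares were 55.7% and 43.5%. Where a gene rose in both, the null difference was the larger for 162 of 229 genes, and where it fell in both, for 228 of 329. Whether the genotypes differ in any single gene was not tested and cannot be without replicates.

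**Figure D1:**
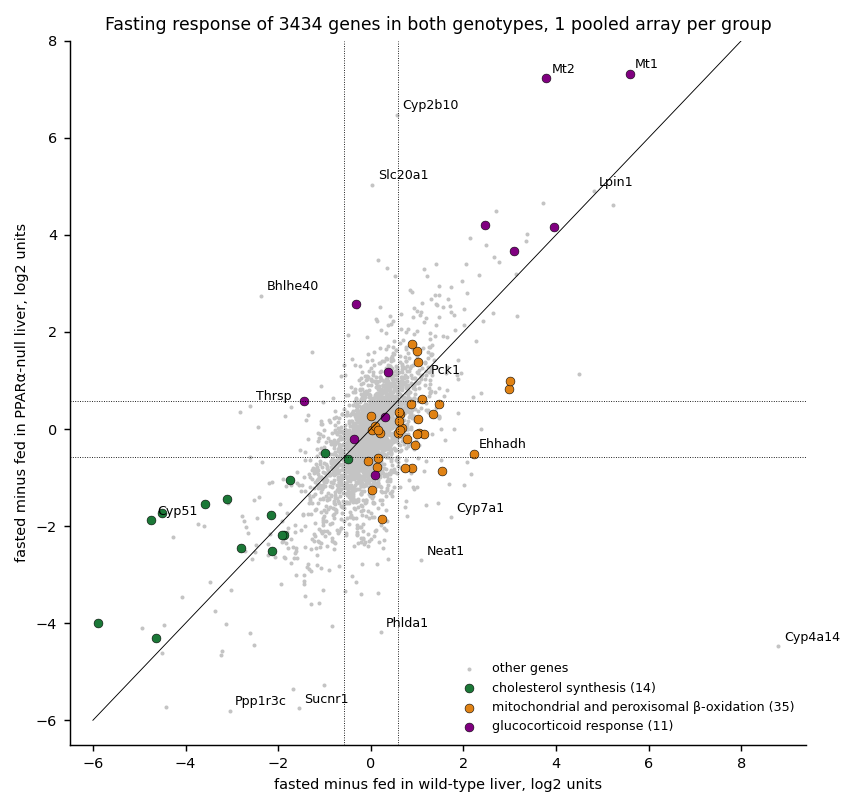
Fasted minus fed log2 intensity of each gene measured in both genotypes, wild-type on the horizontal and PPARα-null on the vertical axis, with dotted lines at 1.5-fold, the diagonal of equal response, and 3 gene lists in colour. Most genes of mitochondrial and peroxisomal β-oxidation lie below the diagonal (Ehhadh at 2.22 and -0.51), whereas Mt1 and Mt2 stand highest on the null axis (7.32 and 7.23).

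The largest rises in null liver were those of the metallothioneins, small cysteine-rich proteins that bind zinc and copper and are induced by metals and by glucocorticoids. Mt1 went from 54.2 to 8681 units, 160.3-fold higher, and Mt2 from 64.9 to 9714 units, 149.7-fold higher. In wild-type liver Mt1 went from 48.1 to 2321 units and Mt2 from 32.9 to 453 units. Both genes thus rose in both genotypes, with Mt2 13.8-fold higher in wild-type liver. The brighter Mt1 probe set is one that can also bind related transcripts, so the separate level of Mt1 is uncertain, and a dimmer probe set of Mt1 had a null log2 difference of 2.64. Of the zinc transporters, 2 rose beside them. Slc39a14, which brings zinc into hepatocytes, read 91.5 to 1021 units in null and 96.1 to 108 units in wild-type liver. Slc30a1, which exports zinc and is itself metal-induced, read 30.6 to 122 units and 33.0 to 45.7 units. Slc39a4, another transporter of zinc, fell from 179 to 81.3 units in null and from 163 to 104 units in wild-type liver. Among the 12 measured genes of metallothioneins and iron, 4 rose and 2 fell, with a median of -0.01. The 4 that rose are Mt1, Mt2, Slc39a14 and Slc30a1, and the 2 that fell are Slc39a4 and Hamp2 (394 to 227 units). The iron hormone Hamp read 16652 to 16246 units and the ferritin gene Fth1 14635 to 14786 units, neither past 1.5-fold.

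The RefSeq promoter windows of the 2 metallothioneins, 250 bases before to 50 after the start on GRCm38.p6, are shown because these genes lead the response and metal response elements are the known control sites of the family. Capitals mark each match on either strand to TGCNCNC, the letters searched for this element, with any base at N. A stricter pattern could match fewer of these stretches. None of these matches overlaps a match to another motif searched.
Mt1, chr8:94178839-94179138, plus strand: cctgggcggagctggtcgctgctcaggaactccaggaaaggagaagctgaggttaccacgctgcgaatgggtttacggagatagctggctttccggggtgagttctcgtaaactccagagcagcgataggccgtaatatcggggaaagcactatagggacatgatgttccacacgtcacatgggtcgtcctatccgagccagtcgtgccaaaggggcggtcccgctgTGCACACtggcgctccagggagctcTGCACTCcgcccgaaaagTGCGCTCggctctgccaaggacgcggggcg
Mt2, chr8:94172368-94172667, plus strand: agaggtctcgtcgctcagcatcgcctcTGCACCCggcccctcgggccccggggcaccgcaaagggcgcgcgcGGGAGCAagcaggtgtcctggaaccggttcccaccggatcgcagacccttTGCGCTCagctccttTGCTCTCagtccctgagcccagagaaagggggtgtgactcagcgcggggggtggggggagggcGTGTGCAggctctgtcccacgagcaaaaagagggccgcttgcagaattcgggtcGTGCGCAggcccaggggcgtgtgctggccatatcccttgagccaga
The Mt1 window holds 3 matches and the Mt2 window 6, counts that hold for these letters alone. A single match is common, at 51.0% of all 32851 windows, but 7.10% of windows hold as many as Mt1 and 0.225% as many as Mt2. Over the 3029 measured genes with a window, 60.0% of those that rose and 55.9% of those that fell held a match, against 57.9% of all. A match is a description of letters and not a site in use.

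The third largest rise was that of a gene of drug metabolism. Cyp2b10, the cytochrome P450 gene that marks activation of the xenobiotic receptor CAR, read 62.5 to 5574 units, 89.2-fold higher, against 84.7 to 125 units in wild-type liver. Its other 2 probe sets showed null differences of 6.74 and 7.36 on the log2 scale. Slc20a1, a sodium-phosphate cotransporter, read 69.4 to 2269 units in null and 114 to 116 units in wild-type liver. The 2 genes were thus low on 3 of the 4 arrays and high on that of fasted null liver. The same holds for Cdkn1a, whose product p21 stops the cell cycle, which read 27.8 to 762 units in null and 16.4 to 27.7 units in wild-type liver. Lcn2, the siderophore-binding acute phase protein lipocalin 2, read 84.9 to 1238 units in null and 15.2 to 18.8 units in wild-type liver. Il1r1, the interleukin 1 receptor, read 23.3 to 348 units against 27.7 to 51.8 units.

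Eppk1, the cytolinker epiplakin, went from the floor to at least 22.1-fold higher at 354 units, and the monooxygenase-like gene Moxd1 from the floor to at least 13.8-fold higher at 220.1 units, while both lay at the floor on both wild-type arrays. Another set of rises was present in both genotypes. Lpin1, a phosphatidate phosphatase and coactivator of the fasting response, read 160.3 to 4799 units in null and 134 to 3774 units in wild-type liver. St3gal5, the synthase of the ganglioside GM3, read 50.2 to 1270.4 units and 104 to 1362 units. The steroid hydroxylase gene Cyp17a1 read 21.7 to 535 units and 22.8 to 858 units, and the glucocorticoid-induced chaperone gene Fkbp5 23.8 to 424 units and 20.6 to 319 units. The remaining members of the 20 were 1810055G02Rik, Angptl4, Nnmt, Cirbp, Gpcpd1, Trim24 and Gadd45g, between 12.7-fold and 22.5-fold higher. Of the 20, 15 also differed by 1.5-fold or more in the same direction in wild-type liver. These 15 include Cdkn1a and Il1r1, which were too dim to count as measured there, at 27.7 and 51.8 units on the fasted wild-type array.

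**Figure D2:**
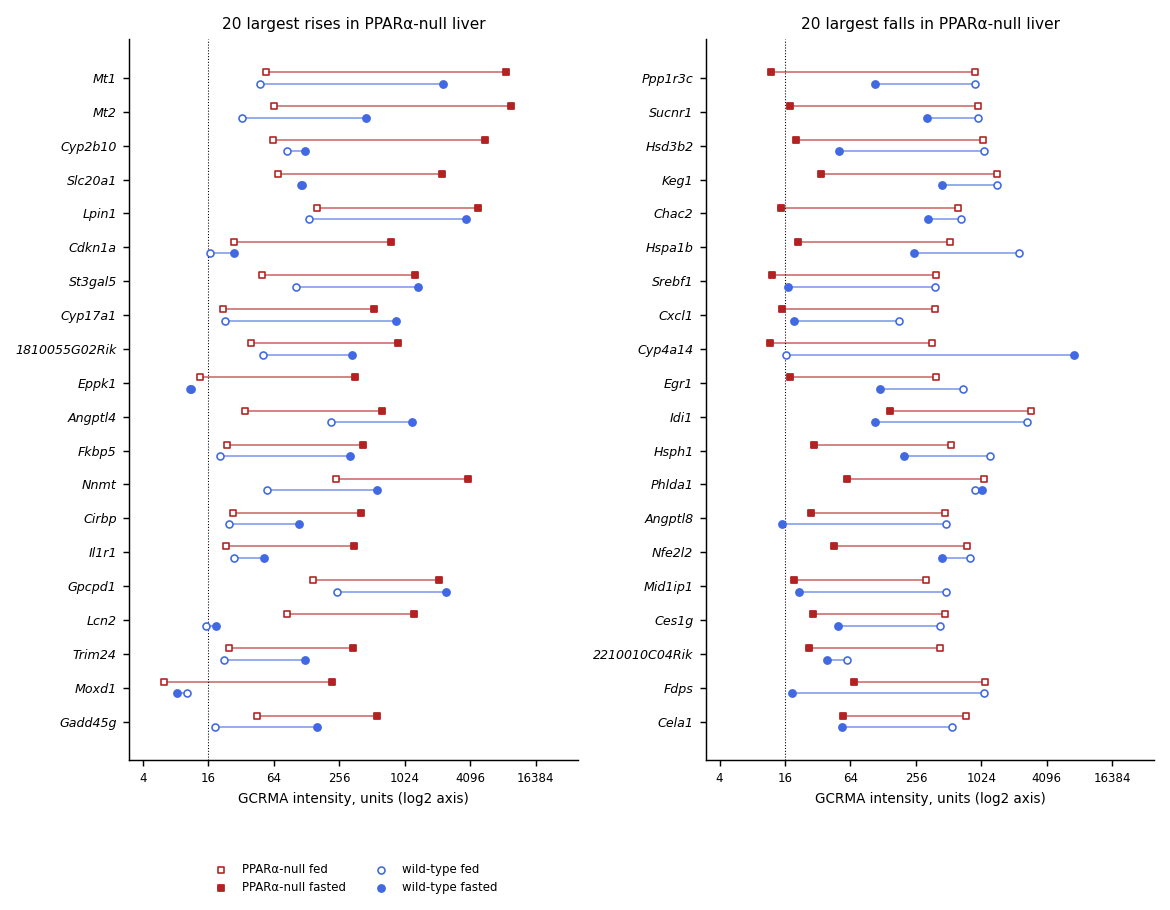
GCRMA intensity (log2 axis) of the 20 genes with the largest rise and the 20 with the largest fall in PPARα-null liver, with squares for null, circles for wild-type, open symbols for fed and filled for fasted pools, 1 array each, and the floor of 16 units dotted. Cyp2b10, Slc20a1 and Cdkn1a are bright on the fasted null array alone, at 5574, 2269 and 762 units, and Cyp4a14 is bright on the fasted wild-type array, at 7278 units.

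The largest fall was that of Ppp1r3c, which encodes a glycogen-targeting subunit of protein phosphatase 1. It read 893 to 12.0 units, at least 55.8-fold lower, against 897 to 108 units in wild-type liver. Sucnr1, the succinate receptor, read 951 to 17.6 units in null and 944 to 323 units in wild-type liver. Hsd3b2, a hydroxysteroid dehydrogenase, read 1064 to 20.0 units, and Keg1, a glycine N-acyltransferase-like gene, 1412 to 34.4 units. Chac2, an enzyme of glutathione breakdown, read 622 to 14.5 units in null against 666 to 329.8 units in wild-type liver. For Sucnr1, Keg1 and Chac2 the fed arrays of both genotypes were close to each other and the fasted null array was the lowest of the 4.

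Nfe2l2, which encodes the oxidative stress regulator NRF2, read 751 to 45.0 units in null and 801 to 448 units in wild-type liver, and the pleckstrin-homology gene Phlda1 1081 to 59.3 units and 891 to 1035 units. Lipogenic and sterol genes formed a second group of large falls, in both genotypes. The lipogenic regulator Srebf1 read 394 to 12.2 units in null and 387 to 16.9 units in wild-type liver. Angptl8, an insulin-induced inhibitor of lipoprotein lipase, read 477 to 28.0 units and 488 to 15.1 units, and Mid1ip1, an activator of acetyl-CoA carboxylase, 318 to 19.5 units and 479 to 21.7 units. The other falls among the 20 were Hspa1b, Cxcl1, Cyp4a14, Egr1, Idi1, Hsph1, Ces1g, 2210010C04Rik, Fdps and Cela1. The fall of 2210010C04Rik rests on 1 of its 3 probe sets, the other 2 lying under the floor. Of the 20, 18 were 1.5-fold or more lower in wild-type liver too, the exceptions being Cyp4a14 and Phlda1. These 18 include 2210010C04Rik, which was too dim to count as measured there, at 59.1 units on the fed wild-type array.

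Part of the gluconeogenic genes rose in null liver and none fell. Of 11 measured genes 6 rose, with a median log2 difference of 0.63, and in wild-type liver 6 of 11 rose with a median of 0.62. Pck1, phosphoenolpyruvate carboxykinase, the entry enzyme of the path, read 6007 to 12275 units in null and 6226 to 13994 units in wild-type liver. The transaminases that feed it with carbon also rose: Got1 read 1536 to 7862 units, Gpt2 1169 to 4409 units and Tat, tyrosine aminotransferase, 3638 to 8166 units. Slc37a4, the glucose-6-phosphate transporter of the endoplasmic reticulum, read 240.4 to 796 units. G6pc, the catalytic subunit of the last step, read 2568 to 2534 units in null and 2762 to 2801 units in wild-type liver, inside 1.5-fold in both. Fructose bisphosphatase, Fbp1, read 5624 to 6484 units and pyruvate carboxylase, Pcx, 1864 to 2417 units in null against 1646 to 3329.7 units in wild-type liver.

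The Pck1 window is shown because its cAMP response element is the textbook route by which glucagon induces the gene. Capitals mark the match to TGACG, the short form of that element, here read on the opposite strand, and the full palindrome TGACGTCA, which contains the short site, is not in this window.
Pck1, chr2:173152823-173153122, plus strand: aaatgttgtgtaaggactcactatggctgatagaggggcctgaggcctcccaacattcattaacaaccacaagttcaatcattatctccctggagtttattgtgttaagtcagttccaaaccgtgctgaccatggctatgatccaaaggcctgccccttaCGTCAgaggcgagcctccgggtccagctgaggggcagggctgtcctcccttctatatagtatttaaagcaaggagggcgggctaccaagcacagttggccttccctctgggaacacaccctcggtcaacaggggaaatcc
Of all windows 20.8% hold the short site. It was in 37.9% of the windows of genes that rose in null liver, 27.5% of those that fell and 34.6% of those of all measured genes. The full element was in 22 of 512 windows of genes that rose (4.30%) and 10 of 766 of those that fell (1.31%). It was in 3.40% of the windows of measured genes and in 1.79% of all windows.

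Regulators of the fasting programme went the same way in part. Foxo1, the transcription factor that insulin keeps out of the nucleus, read 109.8 to 376 units and Cebpb, a cAMP-induced factor, 1786 to 6489.6 units. Creb3l3, a hepatic factor of the fasting response, read 381 to 859 units. Ppargc1a, the coactivator of gluconeogenesis and oxidation, did not reach 64 units in null liver at 21.9 and 23.7 units, against 23.1 to 74.0 units in wild-type liver. Ppargc1b, its relative, went from 15.6 to 92.5 units. Of the 9 measured regulators 4 rose and Cebpa fell, from 1966 to 1252 units. The fall of Cebpa became -0.52 with centring and the rise of Ppargc1b 0.53 with the floor at 64 units, both inside 1.5-fold. Igfbp1, a FoxO target secreted in fasting, read 483 to 5264 units, while Irs1, the docking protein of the insulin receptor, read 188 to 26.1 units. Of the 8 measured genes of the insulin and FoxO response 4 rose and 2 fell.

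Genes of glucose uptake, glycolysis and glycogen fell or stayed. Of 13 measured genes 8 fell and 0 rose, with a median of -0.87 against -0.37 in wild-type liver, where 5 of 14 fell and 2 rose. Slc2a2, the main glucose transporter of hepatocytes, read 2143 to 648 units in null but 2163 to 2175 units in wild-type liver. Pklr, liver pyruvate kinase, read 219 to 81.8 units, and Gckr, which holds glucokinase in the nucleus, 266 to 112 units. In glycogen metabolism Pygl, the liver phosphorylase, read 4979.6 to 2229 units and the branching enzyme Gbe1 542 to 236 units, whereas glycogen synthase, Gys2, read 235 to 195 units in null and 282 to 485 units in wild-type liver. At the pyruvate switch, Pdk1, a kinase that shuts pyruvate dehydrogenase, read 641 to 118 units in null against 674 to 813 units in wild-type liver, and its fasting-induced relative Pdk4 107 to 168 units. Pdk4 and Pdk1 thus went in opposite directions, as the 2 of 6 measured genes of that list past 1.5-fold.

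The genes of fatty acid oxidation, the classical PPARα targets, did not move together in null liver. In the mitochondrial list 5 of 19 measured genes rose and 3 fell, beside 17.2% of all genes for rises, with a median of -0.08. In wild-type liver 15 of 21 rose, none fell, and the median was 0.90. Cpt1a, which makes the acylcarnitines that enter the mitochondrion, read 477 to 1452 units, 3.04-fold higher, against 904 to 1799 units in wild-type liver. Acadl, long-chain acyl-CoA dehydrogenase, read 449.9 to 1505 units, 3.34-fold higher, and Eci2, an enoyl-CoA isomerase, 333 to 866 units, 2.60-fold higher. All 3 started lower in fed null than in fed wild-type liver and remained below the fasted wild-type array, where they read 1799, 2879 and 2736 units. The carnitine carrier Slc25a20 (91.4 to 140.5 units) and carnitine acetyltransferase, Crat (38.5 to 68.1 units), rose from low values. With the floor at 64 units the difference of Crat was 0.09, so that rise is lost.

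Other steps of the spiral held level in null liver. Cpt2, which returns the acyl group to CoA inside the mitochondrion, read 345 to 326 units in null and 998 to 2067 units in wild-type liver. Etfdh, which passes electrons from the dehydrogenases to ubiquinone, read 464 to 433 units and 1279 to 2549 units. Hadha and Hadhb, the subunits of the trifunctional protein, had null log2 differences of -0.09 and -0.08 and wild-type ones of 1.15 and 0.58, and Acadm, medium-chain acyl-CoA dehydrogenase, 0.02 and 0.68. The isomerase Eci1, the dehydrogenase Hadh and the thiolase Acaa2 fell in null liver, from 521 to 299 units, 9179.7 to 5376 units and 4574 to 3005 units. The fall of Acaa2, -0.61 on the log2 scale, lay close to the 1.5-fold limit.

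In the peroxisome 1 of 16 measured genes rose and 5 fell in null liver, with a median of 0.08. In wild-type liver 11 of 16 rose and 0 fell, with a median of 0.69. The rise in null liver was that of Pex11a, a factor of peroxisome division, from 144 to 283 units against 146 to 1168 units in wild-type liver. Ehhadh, the bifunctional enzyme, read 2216 to 1557 units in null and 2279 to 10629 units in wild-type liver. The carnitine octanoyltransferase Crot read 4869 to 1340.2 units, the enoyl-CoA reductase Pecr 3328 to 1388 units, and catalase, Cat, 11234 to 7085 units. The fall of Cat became -0.53 with centring, inside 1.5-fold. The thiolases Acaa1a (412 to 225 units) and Acaa1b (6157 to 3548 units) fell in null and read 415 to 1204 units and 9072 to 15244 units in wild-type liver; the 2 genes are close copies, so their separate values are uncertain.

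The omega-hydroxylase Cyp4a14 showed the widest gap between the 2 responses. It read 356 to 11.7 units in null liver and 16.3 to 7278 units in wild-type liver, at least 22.3-fold lower in the former and 446-fold higher in the latter. The Cyp4a genes are near-identical copies and the value of a single member is uncertain. Cyp4f14, of a related subfamily, fell in both, from 3099 to 874 units in null and 2166 to 392 units in wild-type liver. Of 5 measured genes of the microsomal list 2 fell in null liver. In ketone body metabolism 3 of 4 measured genes fell: Bdh1, which makes 3-hydroxybutyrate, read 1931 to 985 units, the monocarboxylate transporter Slc16a1 1367 to 780.5 units and the thiolase Acat1 3396 to 2139 units. In wild-type liver these 3 had log2 differences of 0.11, 0.21 and 0.13. With centring the null difference of Acat1 was -0.54, inside 1.5-fold.

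**Figure D3:**
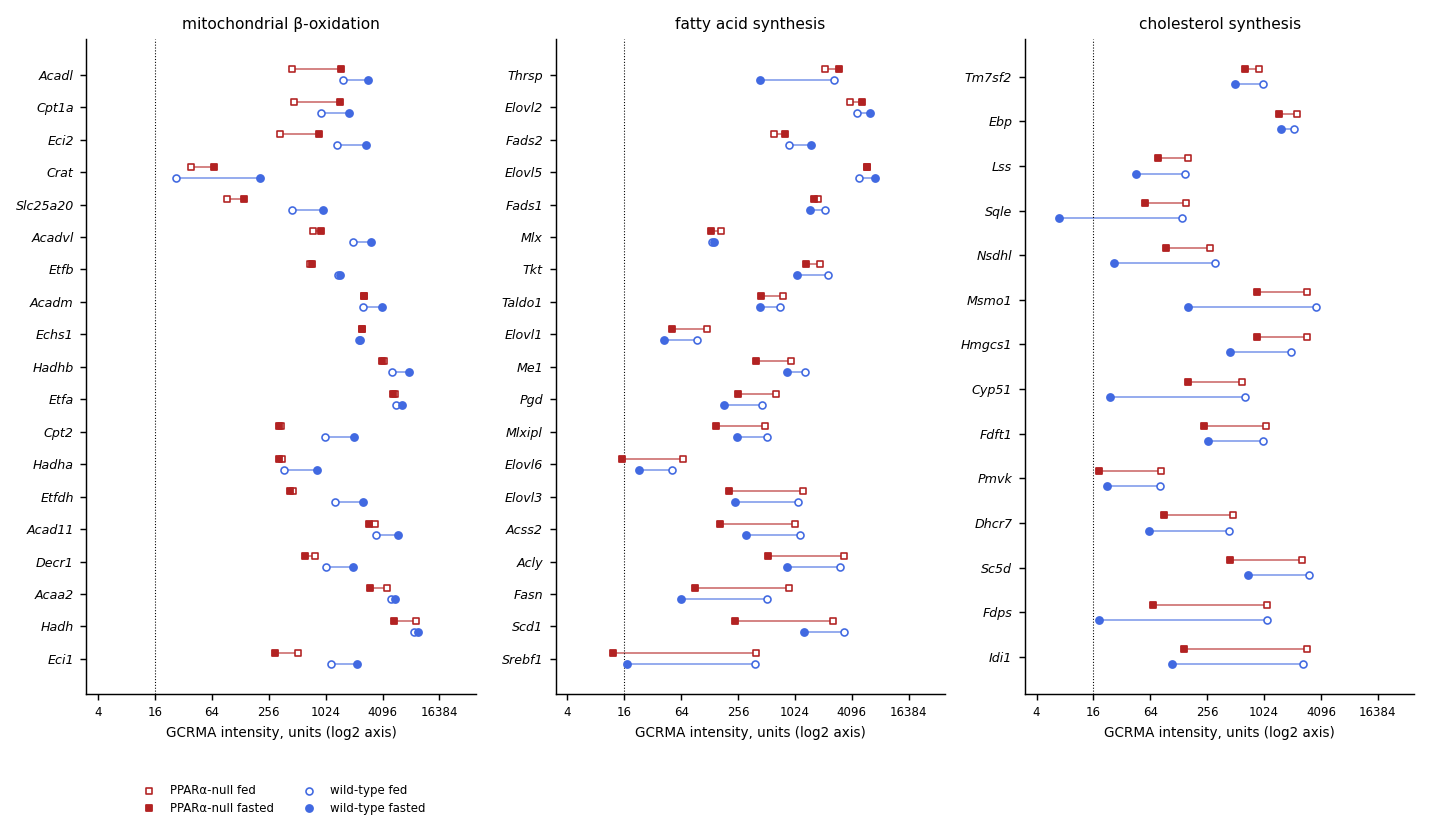
GCRMA intensity (log2 axis) of every measured gene of 3 lists, with squares for PPARα-null, circles for wild-type, open symbols for fed and filled for fasted pools, 1 array each, and the floor of 16 units dotted. Null symbols of β-oxidation mostly overlap (Hadhb at 4263 and 4034 units) while those of cholesterol synthesis all move left (Idi1 from 2910.1 to 146 units).

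Genes that take up, bind and activate fatty acids fell in part. Of 10 measured genes 5 fell and 0 rose, with a median of -0.65 that became -0.52, inside the 1.5-fold limit, when arrays were centred. Fabp1, the abundant fatty acid binding protein of hepatocytes, read 23302 to 7814 units in null and 23524 to 20630.2 units in wild-type liver. Acsl5, an acyl-CoA synthetase, read 1420.3 to 404 units, and Cd36, a fatty acid transporter, 427 to 228 units against 157 to 288 units in wild-type liver. Fabp5 fell in both, from 653 to 167 units and 1079.9 to 81.3 units.

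Lipogenic genes fell in null liver as in wild-type liver. Of 19 measured genes 12 fell and 0 rose, with a median of -1.23 against -1.11 in wild-type liver. After Srebf1 the largest falls were those of Scd1, stearoyl-CoA desaturase (2586 to 238 units, 10.9-fold), and Fasn, fatty acid synthase (881 to 89.1 units, 9.89-fold). Acly, which makes cytosolic acetyl-CoA from citrate, read 3357 to 535 units, Acss2, which makes it from acetate, 1029 to 165 units, and the elongase Elovl3 1246 to 207 units. Mlxipl, the glucose-sensing factor ChREBP, read 492 to 149.9 units. The elongases and desaturases of polyunsaturated fatty acids did not fall: Elovl5 read 5896 to 6005 units, Elovl2 3929.7 to 5272 units, Fads1 1782 to 1615 units and Fads2 617 to 796 units. Thrsp, a lipogenic protein that fasting lowers, departed from the rest, with 2152 to 2995 units in null and 2684 to 441 units in wild-type liver.

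In glycerolipid synthesis 4 of 10 measured genes rose and 4 fell. The phosphatidate phosphatases Lpin1 (above) and Lpin2 (267 to 2812 units, 10.5-fold higher) rose, as did the acyltransferase gene Dgat1 (36.7 to 79.0 units). The rise of Dgat1 became 0.30 with the floor at 64 units and is then lost. Gpam, the acyltransferase of the first step, read 1479 to 140.1 units in null and 1499.9 to 1301 units in wild-type liver, and Gpd1, which makes its glycerol phosphate, 349 to 147 units and 459.8 to 881 units. Mttp, which loads triglyceride onto lipoproteins, read 2218 to 1415 units, a log2 difference of -0.65 that lay close to the 1.5-fold limit. On the lipid droplet Pnpla2, adipose triglyceride lipase, read 67.7 to 619.8 units in null and 61.9 to 548 units in wild-type liver, and the coat protein Plin2 1920.4 to 7553 units and 2405 to 5822 units. G0s2, the inhibitor of that lipase, read 1447 to 322 units in null and 1024 to 978 units in wild-type liver. The carboxylesterase Ces1g read 476 to 29.2 units. Of 10 measured genes of this list 3 rose and 2 fell in null liver.

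The study followed up 8 genes, chosen in part on these arrays, so that their direction is not independent evidence. In null liver Pnpla2 and Txnip rose, Txnip, a glucose-regulated arrestin, from 154 to 541 units, and Pctp, phosphatidylcholine transfer protein, fell from 549 to 287 units against 193 to 867 units in wild-type liver. Etfdh, Etfb (703 to 737 units) and the monoglyceride lipase Mgll (588 to 659 units) did not pass 1.5-fold. Lipe and Lipg, which encode hormone-sensitive and endothelial lipase, lay under the floor on both null arrays.

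Cholesterol synthesis fell almost throughout. Of 14 measured genes 13 fell, none rose, and the median was -1.83, against 13 of 14 and a median of -2.48 in wild-type liver. From the start of the path, Hmgcs1, which makes 3-hydroxy-3-methylglutaryl-CoA, read 2944 to 860.3 units in null and 1980.2 to 442 units in wild-type liver. Idi1, isopentenyl diphosphate isomerase, read 2910.1 to 146 units and 2673 to 107 units, and Fdps, farnesyl diphosphate synthase, 1099 to 68.4 units and 1092 to 18.4 units. Fdft1, squalene synthase, read 1074 to 236 units and 993 to 262 units. Of the 14 genes, 10 had the less negative difference in null liver, among them Fdps at -4.01 against -5.89 and Nsdhl, a sterol dehydrogenase, at -1.54 against -3.58. Tm7sf2, a sterol reductase, was the gene that did not fall in null liver, at -0.50 against -0.98. Lanosterol demethylase, Cyp51, read 597 to 162 units and 644 to 24.1 units, and the methyl sterol oxidase Msmo1 2902 to 869.6 units and 3628 to 159.8 units. A second bright probe set of Cyp51 had differences of -2.01 in null and -2.73 in wild-type liver. The other 4, Pmvk, Fdft1, Sc5d and Ebp, had the more negative difference in null liver, with -2.51 against -2.13 for the desaturase Sc5d and -0.62 against -0.48 for the isomerase Ebp, the last inside 1.5-fold in wild-type liver. With the floor at 64 units Pmvk, a kinase of the mevalonate steps, had a null difference of -0.38, inside 1.5-fold.

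The Hmgcs1 window is shown as a control region of the sterol path, whose genes fell together. Capitals mark the single match to the sterol response element letters TCACNCCAC, which overlaps no match to another motif searched.
Hmgcs1, chr13:119690101-119690400, plus strand: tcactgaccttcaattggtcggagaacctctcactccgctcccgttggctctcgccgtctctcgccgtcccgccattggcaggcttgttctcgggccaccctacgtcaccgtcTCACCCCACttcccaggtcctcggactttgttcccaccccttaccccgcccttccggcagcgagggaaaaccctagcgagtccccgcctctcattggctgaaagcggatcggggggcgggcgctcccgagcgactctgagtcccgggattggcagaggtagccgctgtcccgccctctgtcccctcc
The element was in 1.24% of all windows and in 10 of the 766 windows of genes that fell in null liver (1.31%), against 1.16% of measured genes. The letters of a direct-repeat PPAR response element, present in 0.04% of all windows, were found in 1 window of the measured genes. So rare a match cannot show whether these genes hold or lack PPAR sites. Heat shock element letters, present in 0.60% of all windows, were found in 19.

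Of the genes that sense sterols, Insig2, which holds SREBP in the endoplasmic reticulum, rose from 3240.2 to 6752 units and the cholesterol carrier Stard4 fell from 590.3 to 159 units. Bile acid genes were split. Cyp7a1, the first and limiting step from cholesterol to bile acids, read 155 to 44.1 units in null but 197 to 654 units in wild-type liver. Cyp8b1, which sets the cholic acid share, rose in both, from 905 to 2027 units and 1133 to 3494 units. The bile acid receptor Nr1h4 read 530.5 to 153 units in null and 589 to 1017 units in wild-type liver, and the receptor Nr5a2, which drives Cyp7a1, 760.1 to 275 units and 885 to 721 units. Of the transporters, the bile salt export pump Abcb11 fell from 993 to 229 units, the phospholipid transporter Abcb4 rose from 585 to 1419 units and the organic anion transporter Slco1a4 from 60.8 to 712 units. In all 4 of 20 measured genes rose and 7 fell. Apolipoproteins and lipoprotein receptors were mostly level, with 14 of 18 measured genes of that list inside 1.5-fold. Apoa4, which follows fat load, rose from 11179 to 19132 units, and the receptor gene Scarb1 from 942 to 1428 units. The rise of Scarb1 became 0.29 with the mean of its probe sets, inside 1.5-fold. The lipoprotein receptors Vldlr and Lrp1 fell, from 95.6 to 26.1 units and 563 to 229 units. That of Vldlr became -0.58 with the floor at 64 units, inside 1.5-fold.

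Some genes of nitrogen metabolism rose and others fell, beside 17.2% of all measured genes for rises and 25.1% for falls. Of 13 measured genes of the urea cycle and nitrogen 4 rose and none fell: Asl, argininosuccinate lyase, read 2322 to 6657 units, and Arg1, arginase, 6194 to 11411 units, beside Got1 and Gpt. In amino acid breakdown 7 of 31 rose and 5 fell, with a median of 0.06, so that list had no common direction. Prodh, proline dehydrogenase, read 965 to 2555 units in null and 905 to 1107 units in wild-type liver, and Mat1a, which makes S-adenosylmethionine, 6577 to 12948 units. Shmt1, which moves one-carbon units between serine and folate, read 511 to 192 units in null and 581 to 595 units in wild-type liver. Of 6 measured transporters 4 rose: the cationic amino acid carrier Slc7a2 read 191 to 1123 units, Slc38a2 1286 to 2958 units, Slc25a25 92.4 to 246 units and Slc38a4 4114 to 6383 units. A second probe set of Slc38a4 had a difference of 0.41, short of 1.5-fold.

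The list of glucocorticoid-responsive genes was put together with earlier results of these data known, so its place among the lists is no finding. Of 14 measured genes 10 rose and 1 fell, with a median of 3.12, against 5 of 11 and a median of 0.37 in wild-type liver. Of the 10 rises 6 were under 64 units when fed and were measured through the fasted array alone. The median was 2.03 over all 17 members with a probe set and 0.87 over the 8 that reached 64 units on both null arrays, where 4 rose and 1 fell. Mt1, Mt2, Cdkn1a, Angptl4, Fkbp5, Lcn2 and Gadd45g of this list are among the 20 largest rises. Angptl4, an inhibitor of lipoprotein lipase that PPARα also induces, read 34.6 to 639 units in null and 215 to 1196 units in wild-type liver. Sgk1, a kinase induced by corticosteroids, read 225 to 1347 units against 296 to 238 units, and the growth arrest gene Gadd45g 44.9 to 570.3 units against 18.5 to 158 units. Tsc22d3, the glucocorticoid-induced leucine zipper and a standard target, went the other way, from 1533 to 798 units against 1311 to 1406 units. The list shares Mt1 and Mt2 with the metal response, Lcn2 with the acute phase and Cdkn1a with growth arrest. Corticosterone was not measured in these files.

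Of 14 measured growth arrest genes 8 rose and 3 fell, but 7 of the rises were measured through the fasted array alone and 2 of the falls through the fed array alone. Over the 5 genes at 64 units on both null arrays 1 rose and 1 fell, with a median of 0.03, so the list has no direction there. Trp53inp1, a p53 target, read 485 to 1572 units, Plk3, a stress kinase, 13.6 to 76.1 units, and Sesn1, an inhibitor of growth signalling, 53.6 to 119.7 units. With the floor at 64 units the rise of Plk3 became 0.25 and is lost. The repressor Bcl6 fell in both genotypes, from 414 to 102 units and 673 to 104 units. Growth hormone and insulin-like growth factor genes were split, 5 up and 3 down of 10. Socs2, the feedback inhibitor of the growth hormone receptor, read 43.5 to 457 units, Igfals, the acid-labile subunit, 208 to 42.1 units, and Igf1 itself 2907 to 3919 units. Proliferation genes were dim, with 2 of 21 measured and neither past 1.5-fold.

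Clock genes were higher in fasted null liver, in 4 of 5 measured core genes. Bhlhe40, a repressor of the clock, read 191 to 1282 units in null and 234 to 45.5 units in wild-type liver. Cry2, a core repressor, rose from 106 to 333 units, Nr1d2, the receptor REV-ERBβ, from 885 to 1653 units and Rora, its activating counterpart, from 98.5 to 270.3 units. Of 8 output factors 7 rose, among them the deadenylase Noct (81.7 to 246 units against 200.4 to 83.5 units in wild-type liver), Nampt of NAD synthesis (99.3 to 462 units), the leucine zipper factors Tef (58.3 to 145 units) and Dbp (56.0 to 127.9 units), and Alas1, the first enzyme of haem synthesis (1199.7 to 6931 units). Csnk1d fell in the probe set with the highest mean, from 266 to 138 units, while its other 2 bright probe sets rose by 1.99 and 2.64 on the log2 scale, so no direction can be given for it. Of the 7 rises of output factors 3 were measured through the fasted array alone.

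**Figure D4:**
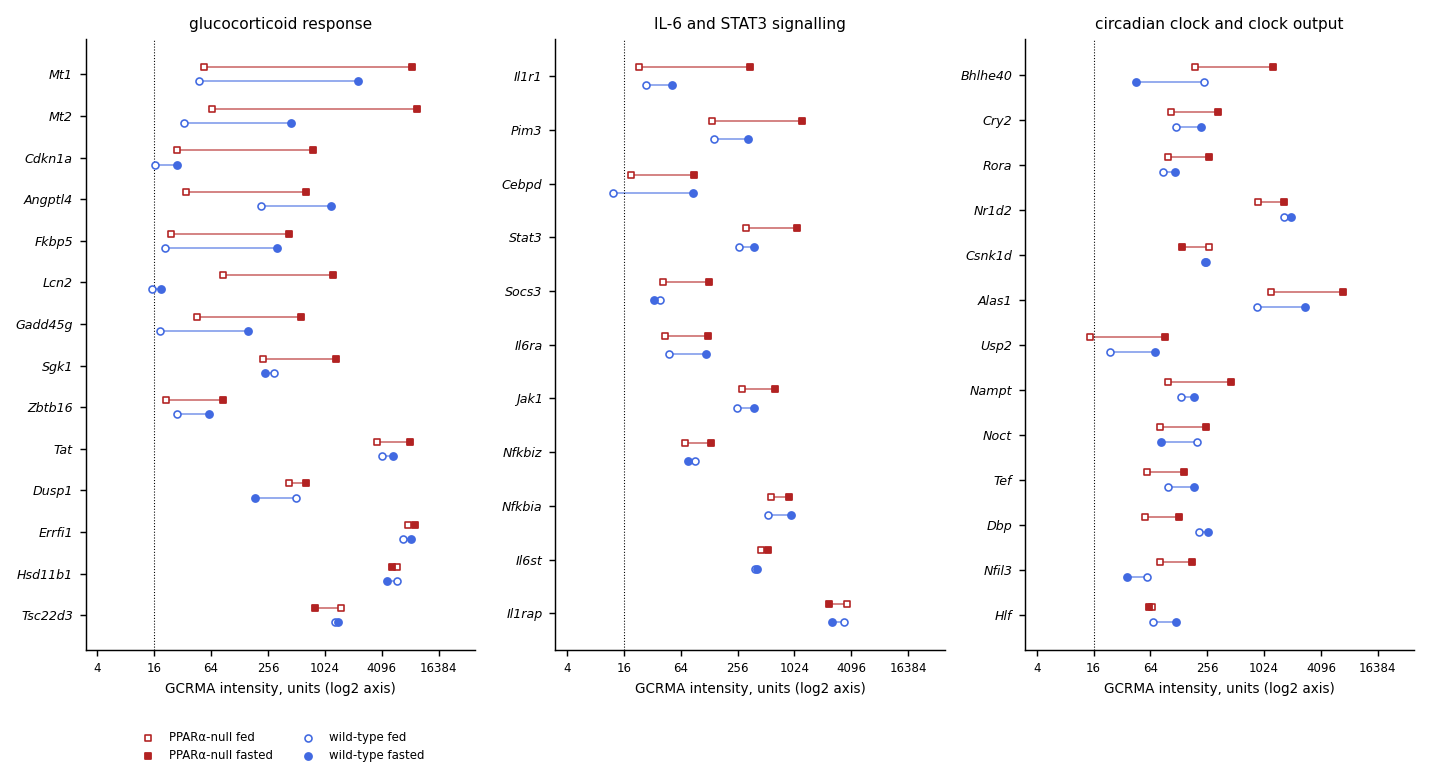
GCRMA intensity (log2 axis) of every measured gene of 3 panels of lists, with squares for PPARα-null, circles for wild-type, open symbols for fed and filled for fasted pools, 1 array each, and the floor of 16 units dotted. The filled squares of Mt1, Mt2, Stat3 and Bhlhe40 lie to the right of all other symbols of their gene, Stat3 at 1102 units.

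The acute phase response, the change in secreted plasma proteins that inflammation brings, was partly present. Of 24 measured genes 7 rose and 1 fell, with a median of 0.30. In wild-type liver 2 of 20 rose and 3 fell, with a median of -0.18. Beside Lcn2 the serum amyloid genes Saa1 (1729 to 6591 units) and Saa2 (944 to 5392 units) and the orosomucoid gene Orm2 (98.2 to 448 units) rose. In wild-type liver they read 804 to 569.5 units, 181 to 147 units and 48.9 to 33.0 units. Members of these families are similar in sequence, so their separate values are uncertain. Lbp, the lipopolysaccharide binding protein, rose in both genotypes, from 413 to 1536 units and 259.8 to 814 units. The bulk of the plasma proteins held level, with haptoglobin, Hp, at 8445 to 10777 units, the fibrinogen chain Fgb at 14831 to 18688 units and Crp at 2770.4 to 2867 units.

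Of 11 measured signalling genes of interleukin 6, the cytokine that drives this response through STAT3, 9 rose and 1 fell, with a median of 1.54 against 0.60 in wild-type liver. Of these rises 4 were measured through the fasted array alone. The median was 0.93 over the 7 genes at 64 units on both null arrays and 0.44 over all 18 with a probe set. Stat3 read 312 to 1102 units in null and 268 to 378 units in wild-type liver, the receptor gene Il6ra 43.2 to 126 units and 47.7 to 117 units, and the feedback inhibitor Socs3 41.9 to 127 units and 38.7 to 33.4 units. Pim3, a kinase downstream of STAT3, read 138 to 1219 units. The neutrophil chemokine Cxcl1, by contrast, read 379.9 to 14.9 units. Interferon and antigen presentation genes went down, 7 of 11, led by the GTPase genes Igtp (98.5 to 17.8 units) and Irgm1 (153 to 49.5 units), with Cd74, the class II invariant chain, at 504 to 231 units. Of these falls 4 were measured through the fed array alone. The median of that list, -0.78, became -0.46 with the floor at 64 units. Complement and coagulation genes stayed level in 24 of 28 cases.

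Chaperones of the endoplasmic reticulum fell in both genotypes. In null liver 12 of 19 measured genes fell and 1 rose, with medians of -0.77 in null and -0.84 in wild-type liver. Pdia6, a disulfide isomerase, read 1448 to 354 units, the cochaperone Dnajb9 2321 to 707 units and the secreted factor Manf 4067 to 1831 units. Hspa5, the master chaperone BiP, read 9631 to 6712 units in null, inside 1.5-fold, and 10649.8 to 5826 units in wild-type liver. The gene that rose was Herpud1, a factor of protein degradation, from 2206 to 4000.4 units. Several heat shock genes fell steeply: Hspa1b, the inducible HSP70, read 529.7 to 21.1 units in null and 2296 to 244 units in wild-type liver, Hsph1 541 to 29.4 units and the cochaperone Fkbp4 743 to 85.0 units. The constitutive Hspa8 and the mitochondrial Hspd1 held level at 5112 to 4739 units and 3362 to 3643 units. In all 6 of 17 heat shock genes fell and 2 rose. Of these falls 5 were measured through the fed array alone.

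Beside Nfe2l2, some genes of the antioxidant response fell. Gclc, the catalytic subunit of glutathione synthesis, read 3863 to 966 units in null and 4156 to 1548 units in wild-type liver, whereas its partner Gclm read 1219 to 1506 units, and Srxn1, sulfiredoxin, rose from 79.0 to 154 units. The list had 6 falls and 1 rise among 15 measured genes. Immediate early genes went both ways, 4 up and 4 down of 10. Egr1 read 388 to 17.6 units, Fos 74.9 to 12.5 units and Jun 509 to 235 units, while the Krüppel-like factors Klf2, Klf4 and Klf6 read 24.1 to 120.3 units, 9.49 to 108 units and 21.2 to 106 units. Of the rises 3, and of the falls 2, were measured through 1 null array alone, and the fall of Fos became -0.23 with the floor at 64 units. In wild-type liver no gene of this list rose and 6 of 8 fell. The median of the list moved from 0.19 to 0.66 with quantile normalization and to 0.71 with centring.

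Of 21 measured genes of xenobiotic metabolism by cytochromes P450 4 rose and 1 fell. Beside Cyp2b10 and Alas1 the rises were Cyp3a13 (1895 to 4993 units) and the CAR gene itself, Nr1i3 (1129 to 1819 units in null, 823 to 2479 units in wild-type liver). Cyp3a11, the main inducible member of its family, read 4249.8 to 6059 units, short of 1.5-fold. Conjugation enzymes fell in 11 and rose in 5 of 25 cases. Glutathione transferases made up most of the falls, among them Gsta2 (6214 to 2902 units), Gsta4 (357 to 148 units) and Gstm6 (237 to 52.9 units), all members of families of similar sequence. The sulfotransferases Sult1e1 (371 to 1636 units) and Sult1d1 (1572 to 3393 units) rose. Among male-biased liver genes Hsd3b5, a steroid dehydrogenase, read 3864 to 353 units in null and 4579.7 to 273 units in wild-type liver, and the list had 3 falls and 1 rise in 13 measured genes in null liver and 8 falls in 13 in wild-type liver. Of the 13 female-biased genes on the array only Cyp17a1 reached 64 units in null liver.

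Ribosomal protein, respiratory chain, citric acid cycle and proteasome genes were mostly level. None of 30 measured ribosomal protein genes passed 1.5-fold, with a median of 0.09. Of 41 genes of the respiratory chain and ATP synthase 40 stayed inside 1.5-fold, the exception being Atp5g1 at 1386 to 902 units, which centring brought inside too. The citric acid cycle had 18 of 21 genes inside, and the proteasome 26 of 29. Of 6 reference genes none passed 1.5-fold, with Rplp0 at 6502 to 6607 units and Actb at 9452 to 9809 units. Hprt fell just short of it at 429.5 to 642.3 units, and passed it in wild-type liver at 452.9 to 692.6 units. Other probe sets of Ywhaz had null differences between -0.83 and 0.82. Autophagy and lysosome genes had 6 rises and 2 falls in 23: Bnip3, a mitophagy receptor, read 927 to 3483 units, the adaptor Sqstm1 1921 to 4346 units and cathepsin L, Ctsl, 5592 to 13665 units. Among translation factors Eif6 rose from 319.5 to 760.3 units, in a list with 17 of 21 inside.

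**Figure D5:**
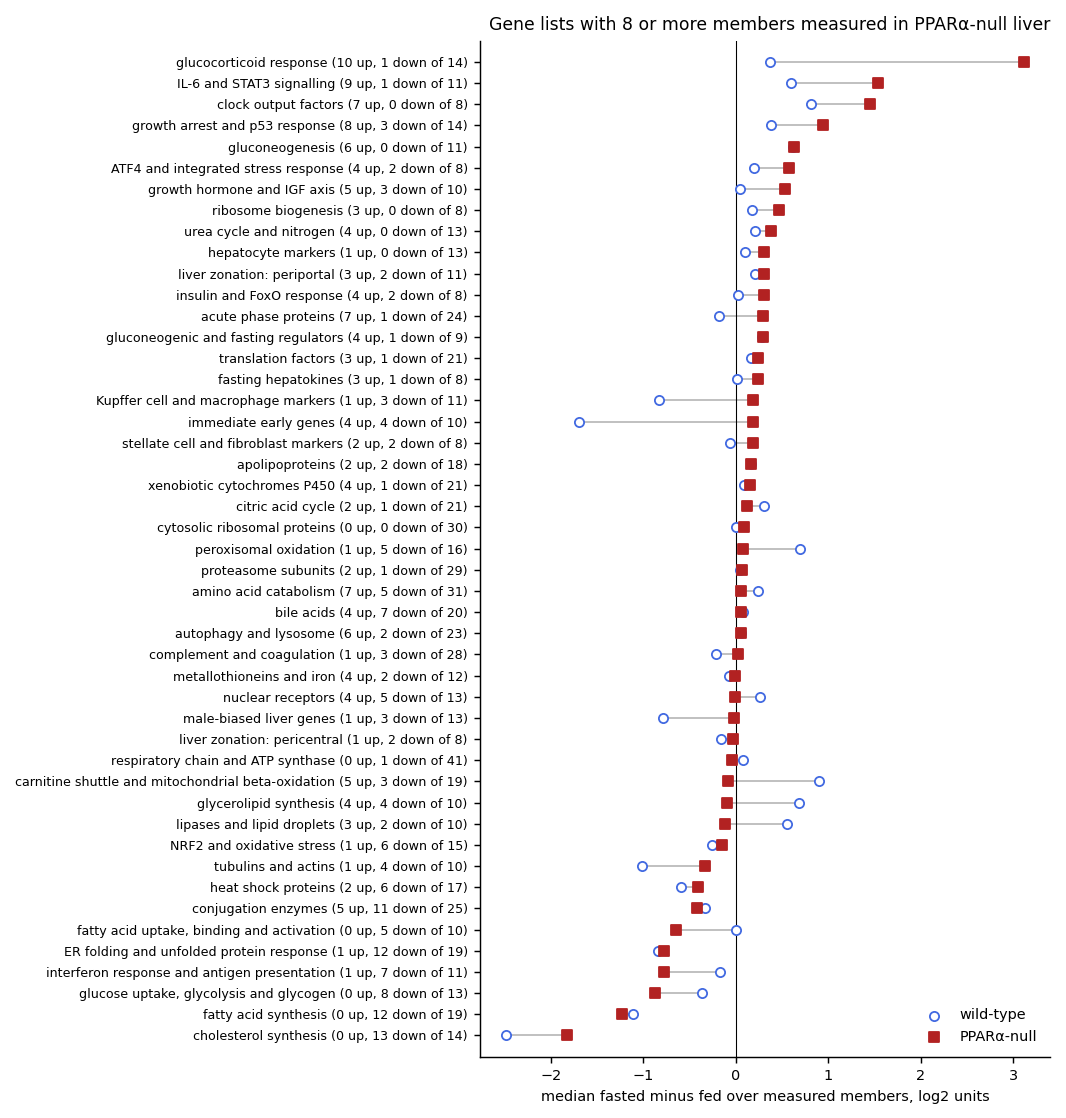
Median fasted minus fed log2 difference of each gene list with 8 or more members measured in PPARα-null liver, red squares for null and open blue circles for wild-type (over the members measured in that genotype), with the null counts past 1.5-fold in the labels. Glucocorticoid response stands at the top at 3.12 (0.87 over members at 64 units on both null arrays) and cholesterol synthesis at the bottom at -1.83, while ribosomal proteins lie at 0.09.

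Markers of cell types were examined because a whole liver holds more than hepatocytes. In a bulk sample fewer cells of a type and less RNA per cell cannot be told apart. A summed level, here and below, adds the units of different genes, so its brightest members weigh most. Hepatocyte markers were bright, with all 13 measured, a summed level of 132552 units in fed and 162424 in fasted null liver, and Alb at 11968 to 17033 units. Tat was the 1 member to rise. Of 11 measured Kupffer cell and macrophage markers 1 rose and 3 fell. Their summed level over all 18 genes was 2491 units in fed and 2043 in fasted null liver, and 2030.0 and 1296 in wild-type liver. The decrease of the null sum depends on the lysozyme gene Lyz1, at 1038 to 418 units, whose probe set can also bind related transcripts. Without Lyz1, the other 17 summed to 1453 units in fed and 1625 in fasted null liver, and 1300.5 and 793 in wild-type liver. Lyz2 (154 to 80.4 units) and Laptm5 (92.6 to 54.9 units) fell in null liver as well. The median difference of the measured markers was 0.19 in null and -0.83 in wild-type liver. The Kupffer cell lectin Clec4f read 73.6 to 81.8 units in null and 60.3 to 40.4 units in wild-type liver, where 5 of 6 measured markers fell. None of the 8 neutrophil markers or the 14 lymphocyte markers on the array reached 64 units in null liver.

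The scavenger receptor Stab2 of sinusoidal endothelium rose from 203 to 637 units and the lectin Clec4g fell from 236 to 34.9 units, in a list of 6 measured endothelial markers. Of 8 measured stellate cell and fibroblast markers Col3a1 (123 to 34.9 units) and Pdgfrb (81.5 to 30.5 units) fell and Dcn (1218 to 1876 units) and Rgs5 (441 to 706 units) rose, so these lists have no common direction. The fall of Pdgfrb became -0.35 with the floor at 64 units and is then lost. Of the 11 listed exocrine pancreas markers with a probe set, the elastase gene Cela1 alone reached 64 units in null liver. It fell from 745 to 55.0 units in null and from 552 to 53.9 units in wild-type liver. The summed level of these 11 went from 1019.6 to 186 units in null liver, and the trypsinogen gene Prss2 read 52.7 and 25.6 units. Pancreatic genes outside this list were not examined as such. Adipocyte-specific Adipoq and Lep lay under the floor on both null arrays. The part of any of these in the results was not tested.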

How the data were processed

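Liver RNA was pooled within each of 4 groups, listed as 5 mice each in the series' design, and every pool was measured on 1 Affymetrix MOE430A array. The deposited values are GCRMA intensities on a linear scale (GCRMA 2.20 in the submitters' processing notes), made by the authors; the set of arrays that entered the normalization is not stated. Control probe sets were left out. Intensities below 16 units were set to 16 and differences taken as log2 of fasted over fed. A gene was represented by the probe set naming it alone with the highest mean log2 value, and counted as measured at 64 units or more on the brighter array. With 1 array per group no test was made, and the number of arrays limits the precision: a threshold of 1.5-fold, as the study used for pooled arrays, has no replicate check.

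The genes named in the text are the 20 with the largest rise and the 20 with the largest fall, up to 6 members of each list with the largest differences past 1.5-fold and members described by role, Ppara, the 8 genes the study selected, reference genes and the 8 most opposed genes in each direction. Members, lists and rules were chosen with earlier results of these data known. Alternatives were a 2-fold threshold, 128 units or no brightness filter, quantile normalization, centring, a lowess trend (fraction 0.3) removed, probe sets with a suffix left out, the mean over a gene's probe sets, and a floor of 64 units. List medians without the brightness filter, and with 64 units on both null arrays, were added after seeing the data. Promoter windows came from RefSeq on GRCm38.p6. The counting was tested on simulated data. Python 3.11.15, pandas 2.3.3, numpy 2.4.6, statsmodels 0.14.6 and matplotlib 3.10.9 were used.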

Additional observations from a re-analysis of the deposited data

Results flagged for a closer look

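Some genes rose 1.5-fold or more in 1 genotype and fell 1.5-fold or more in the other: 6 genes measured in both genotypes were higher in null and lower in wild-type liver, and 31 the reverse. With 1 array per group the difference was not tested for any of them. The values that follow are the log2 difference in null liver minus that in wild-type liver, for the 8 most opposed genes in each direction, where 64 units were reached in either genotype.

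Among those higher in null liver, the clock repressor gene Bhlhe40 differed by 5.11 and the deadenylase gene Noct by 2.85. Kcnk5, a potassium channel gene, differed by 3.15, with 31.2 to 158 units in null and 48.4 to 27.4 units in wild-type liver. The transglutaminase gene Tgm2 differed by 1.96, and Rell1 by 1.90. The growth arrest genes Gadd45a and Btg2 differed by 1.94 and 1.93, and the repressor gene Nfil3, a clock output factor, by 1.81.

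In the other direction Cyp4a14 differed by -13.28, a bound that the true difference may exceed, since its fasted null value lay under the floor. Cyp7a1 differed by -3.55 and Pctp by -3.11. Neat1, a nuclear long noncoding RNA, differed by -3.79, with 3838 to 589 units in null and 2771 to 5879.6 units in wild-type liver. Retsat, retinol saturase, differed by -3.18, with 1036 to 463 units in null and 2745 to 11139.7 units in wild-type liver. Etfbkmt, a methyltransferase of the electron transfer flavoprotein, differed by -2.99, the pantetheinase gene Vnn3 by -2.82, and Tkfc, a kinase of the fructose path, by -2.76. With the floor at 64 units the null differences of Btg2 and Tkfc were 0.27 and -0.09, inside 1.5-fold.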

How the results depend on the processing

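No paired analysis was possible because each group is 1 pooled array and no result comes from a test. The counts of probe sets that rose and fell, 1022 and 1369, were 540 and 776 at 2-fold, 1645 and 2240 without the brightness filter, and 620 and 834 without suffixed probe sets. They were 1172 and 1244 with quantile normalization and 1293 and 1139 with centring, so the excess of falls is not kept under centring. Of 62 list medians, 61 moved by less than the spread between probe sets under quantile normalization, 61 under centring and 62 with the lowess trend removed. That spread was 0.45 on the log2 scale, whereas centring took a shift of -0.13 out of nearly every null difference. Hardly any median could therefore have moved by the spread under centring, and this count is no evidence of stability. The median of fatty acid uptake still came inside 1.5-fold with centring, at -0.52.

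Without suffixed probe sets the medians became 1.10 for gluconeogenesis, 0.064 for growth hormone and insulin-like growth factor, 2.58 for glucocorticoid response, 1.71 for fasting hepatokines, -0.57 for glycerolipid synthesis, -1.23 for interferon and -0.70 for adipocyte markers. With the floor at 64 units they became 2.65 for glucocorticoid response, 0.41 for growth arrest, 3.06 for female-biased genes and 0.97 for interleukin 6 signalling. The immediate early median became 0.66 with quantile normalization and 0.71 with centring, and that of exocrine pancreas -3.08 with the mean of probe sets. Over all members with a probe set, whatever their brightness, 11 of 62 medians moved: to 2.03 for glucocorticoid response, 0.44 for interleukin 6 signalling, 0.52 for the core clock, -0.71 for fatty acid synthesis, -0.13 for interferon, -0.44 for exocrine pancreas, and 0 for growth hormone and insulin-like growth factor, fatty acid uptake, ketone bodies, female-biased genes and erythroid markers. Over members at 64 units on both null arrays 5 of 60 moved: to 0.87 for glucocorticoid response, 0.027 for growth arrest, 1.90 for clock output, 0.93 for interleukin 6 signalling and -0.70 for adipocyte markers. These 2 settings were chosen after seeing the data. Csnk1d reversed to 1.23 with the mean of its probe sets. The cause of these changes was not tested, beyond the members, probe sets and floor that the settings themselves impose. Of 267 named gene differences, 61 moved with the floor at 64 units. These 267 leave out genes mentioned for their role alone, such as Acaa2, Mttp, Ebp, Nr2f2 and Rxrb. Their single differences were not followed under other settings. Of the 258 named genes past 1.5-fold, 20 fell short of it with that floor, among them Ppargc1b, Crat, Dgat1, Vldlr, Plk3, Fos, Pdgfrb, Btg2 and Tkfc, 10 with centring, among them Cebpa, Cat, Acat1 and Atp5g1, 4 with the mean of probe sets, 3 with quantile normalization and 1 each with the lowess trend removed and without suffixed probe sets. Dim genes are limited by signal over background, and without replicates no error can be put on any value.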

Other observations

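Cytoskeletal genes were among those that differed in level between the fed pools as well as in response. In null liver 4 of 10 measured tubulin and actin genes fell and 1 rose. The thymosin gene Tmsb10, whose product binds actin monomers, went from 289 to 54.0 units in null and 97.6 to 36.6 units in wild-type liver. Tubb2a, a β-tubulin, read 2852 to 3641 units in null and 1311 to 186 units in wild-type liver, and Actg1, the cytoplasmic γ-actin, 2229 to 4745 units and 2223 to 1423 units. The γ-actin gene was the 1 rise of the list.

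Other lists were split. Of 8 measured ribosome biogenesis genes 3 rose, with nucleolin, Ncl, at 1077 to 1942 units in null and 1052 to 2168 units in wild-type liver. Of 8 measured genes of the integrated stress response 4 rose and 2 fell, with Atf4 itself, its transcription factor, at 919 to 809 units. Pericentral and periportal genes showed no common shift, with medians of -0.03 over 8 and 0.31 over 11 measured genes. Among nuclear receptors Nr2f2 and Nr2f6 fell, from 83.5 to 46.8 units and 170.3 to 92.4 units, and Rxrb, a partner of many of them, rose from 55.8 to 92.1 units. Of the secreted fasting factors Fgf21, a PPARα target, lay under the floor on both null arrays and read 22.1 to 32.2 units in wild-type liver.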
